A study of Mus musculus with 8 samples.

Results

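The genes described here bear names of RNA helicase and splicing factor families and had peaks of N6-methyladenosine (m6A) in mouse spermatogenic cells. They are called helicase and splicing factor genes below, a label that rests on the name and not on function. A gene belonged to the set if its symbol in any of the 4 deposited peak lists began with Ddx, Dhx, Rbm, Srsf, Hnrnp, Sf3, Prpf, Luc7l, Celf or Rbfox, and Rbm15, Rbm15b and Hnrnpa2b1 were left out by the rule. This gave 86 of the 8733 genes with a peak in any list, all protein coding, and a gene without a peak in any list could not belong to it. The set held 24 Rbm, 21 Ddx, 11 Dhx, 11 Hnrnp, 6 Prpf, 5 Srsf, 3 Sf3, 3 Celf and 2 Luc7l genes, and 0 Rbfox genes.

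The testes were those of C57BL/6 mice aged 12 weeks, either wild type (WT) or Alkbh5-/- (KO), the mutants lacking an RNA demethylase that takes m6A off RNA. The labels name 2 cell fractions, PA and RO, and the series title speaks of pachytene spermatocytes (cells in prophase of the first meiotic division) and round spermatids (the haploid cells after it). Where 4 values stand in a row without further words, they are for WT and KO in PA and then for WT and KO in RO. Methylated RNA immunoprecipitation sequencing compares fragments pulled down by an antibody against m6A with the unselected fragments, called input, and each of the 8 samples (input and immunoprecipitated, for each genotype and fraction) was a group of its own. Since every group was 1 library, differences between groups were not tested and have no check on replicates, and intervals cover counting error only. How many animals gave a library, and how the fractions were separated, is not given in the sources used here.

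DEAD-box (Ddx) and DEAH-box (Dhx) helicases spend ATP to unwind RNA or to pull proteins off it, and several of them drive the rearrangements of the spliceosome. SR proteins (Srsf) bind exons and favour the use of nearby splice sites, hnRNP proteins coat nascent RNA and often act against them, and Sf3, Prpf and Luc7l proteins are parts or partners of the spliceosomal snRNPs. Male germ cells splice an unusually wide range of isoforms, and spermatids store mRNA for translation after transcription has stopped.

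The count table held between 9921365 and 13147239 counts per input library. Of those counts the 86 genes took 2.08% in WT and 1.60% in KO for PA, and 1.77% and 1.61% for RO. Of the 10 pachytene markers listed for this work 5 had a symbol in the peak lists, with summed input levels, in CPM (counts scaled to the size of the library), of 2651 in WT and 1642 in KO for PA, and 2382 and 1817 for RO. The 6 named round spermatid markers of 10 summed to 245, 533, 464 and 981 CPM in the same order, so both kinds of marker were present in all libraries. Leydig cell markers (Cyp11a1 and Hsd3b1, 2 of 5 named) summed to 136, 40.0, 41.5 and 16.7 CPM. Sertoli markers (Sox9 and Wt1, 2 of 6) summed to 97.3, 132, 57.2 and 77.1 CPM, markers of spermatogonia (3 of 5) to 30.5, 60.4, 23.5 and 42.4 CPM, and peritubular and endothelial markers (3 of 4) to 329, 339, 151 and 273 CPM, and no named marker was at 0 in any library. Alkbh5 itself has no symbol in the peak lists and was not analysed here, so the genotype labels were not checked on it.

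Helicase and splicing factor transcripts carried 339 peaks over the 4 lists. The WT PA list had 67 peaks in 49 of the genes, the KO PA list 98 in 72, the WT RO list 83 in 59 and the KO RO list 91 in 65. Peaks per gene lay between 1.36 and 1.41, against 1.59 to 1.63 over all genes of the lists. The KO PA list was the longest for these genes and also over all genes, with 9931 peaks, where the WT PA list had 7502 and the RO lists 9418 (WT) and 8846 (KO). Most of the genes with a peak had a single one in a list (33 of 49 and 48 of 72 in PA, 41 of 59 and 44 of 65 in RO, for WT and KO), and the largest number in a list was 4, in the KO RO list for Celf5.

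**Figure D1:**
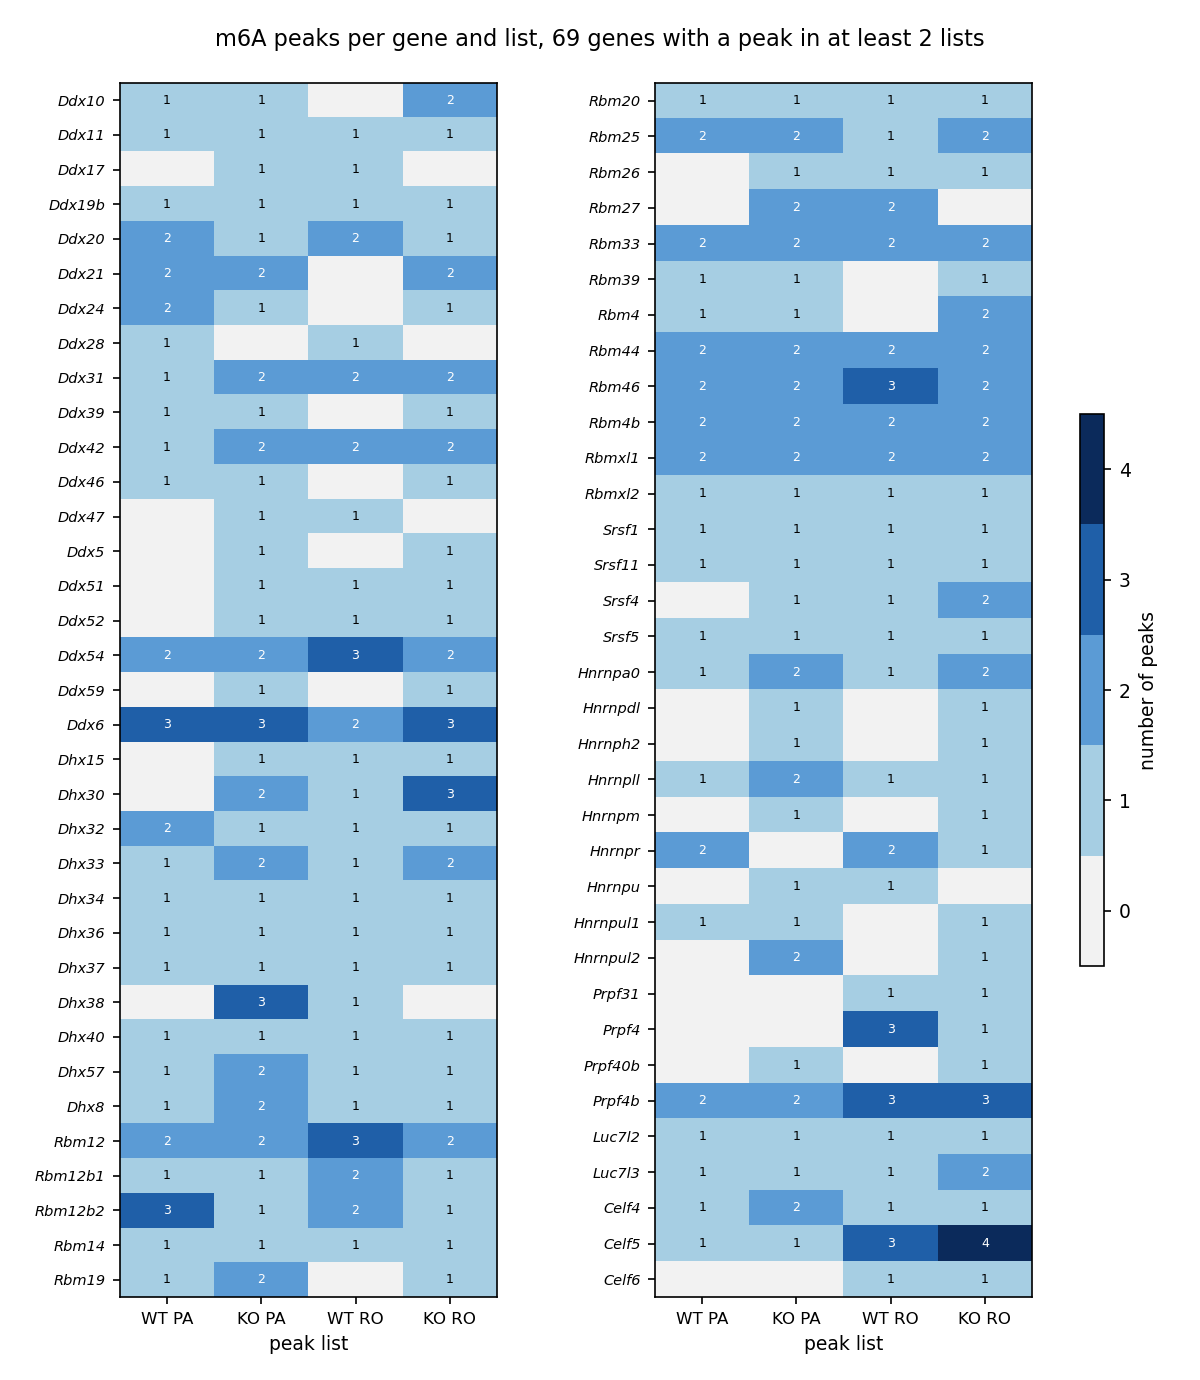
Number of m6A peaks (cell label and colour, 0 to 4) in each of the 4 peak lists (columns) for the 69 genes with a peak in at least 2 lists (rows). Ddx6 and Prpf4b have the most over the lists, 11 and 10, and Celf5 has the single cell with 4, in the KO RO column.

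The fold of a peak, the authors' value for immunoprecipitated over input signal, depends on both libraries of a pair and is given here to describe peaks within a list, and no change between lists is read from it. The median fold of the peaks in these genes was 9.49 in WT and 9.81 in KO for PA, and 13.5 and 8.74 for RO. Those medians stood at percentiles 39.4, 36.4, 44.0 and 35.8 of the folds of their own lists. The peaks of helicase and splicing factor genes were therefore placed below the middle of each list in fold. By the authors' false discovery rate, 1 of 67 and 1 of 98 did not reach a limit of 0.05 in PA (WT and KO), and 7 of 83 and 0 of 91 in RO.

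Of the 339 peaks, 175 (51.6%) were classed by the authors as coding sequence, 91 (26.8%) as 3′ UTR, 59 (17.4%) as exon with no finer class and 14 (4.13%) as 5′ UTR. In PA the share in coding sequence was 52.2% for WT (35 of 67, Wilson 95% interval 40.5% to 63.7%) and 59.2% for KO (58 of 98, 49.3% to 68.4%). In RO it was 43.4% for WT (36 of 83, 33.2% to 54.1%) and 50.5% for KO (46 of 91, 40.5% to 60.6%). Over all peaks in protein-coding genes it was 63.5%, 61.5%, 57.4% and 59.7%. The share classed only as exon was 22.4%, 16.3%, 15.7% and 16.5% in the 4 lists, against 9.98%, 10.01%, 9.71% and 9.86% over all peaks in protein-coding genes. The intervals of the exon share reached down to 14.1%, 10.3%, 9.39% and 10.3%. The one for WT PA lay above the share over protein-coding genes, and the one for WT RO took it in. In KO PA and KO RO the lower end was only just above that share. The intervals treat peaks as independent, but Rbm4b had exon peaks that overlapped each other within each list, so no difference is read from the KO intervals.

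Most genes had peaks of a single class. Of the 69 genes with at least 2 peaks over the lists 48 (69.6%) had all of them in 1 class, where 65.2% of the 5333 such protein-coding genes did. With the 17 genes that had 1 peak in all, 65 genes had a single class: 33 in coding sequence only, 17 in the 3′ UTR only, 13 in exon only and 2 in the 5′ UTR only. Dhx34, a DEAH-box helicase of nonsense-mediated decay, was one of those 2, with 1 peak in the 5′ UTR in each of the 4 lists. Rbm genes had 77 of 106 peaks in coding sequence (72.6%). Ddx genes had more peaks in the 3′ UTR (39 of 86, 45.3%) than in coding sequence (30 of 86, 34.9%). Celf genes had 13 of 16 in the 3′ UTR (81.2%), Prpf genes 14 of 20 in coding sequence, Srsf genes 8 of 17 and Hnrnp genes 11 of 32 in exon. Peaks of 1 gene in several lists are often the same site, so these counts are not independent observations.

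**Figure D2:**
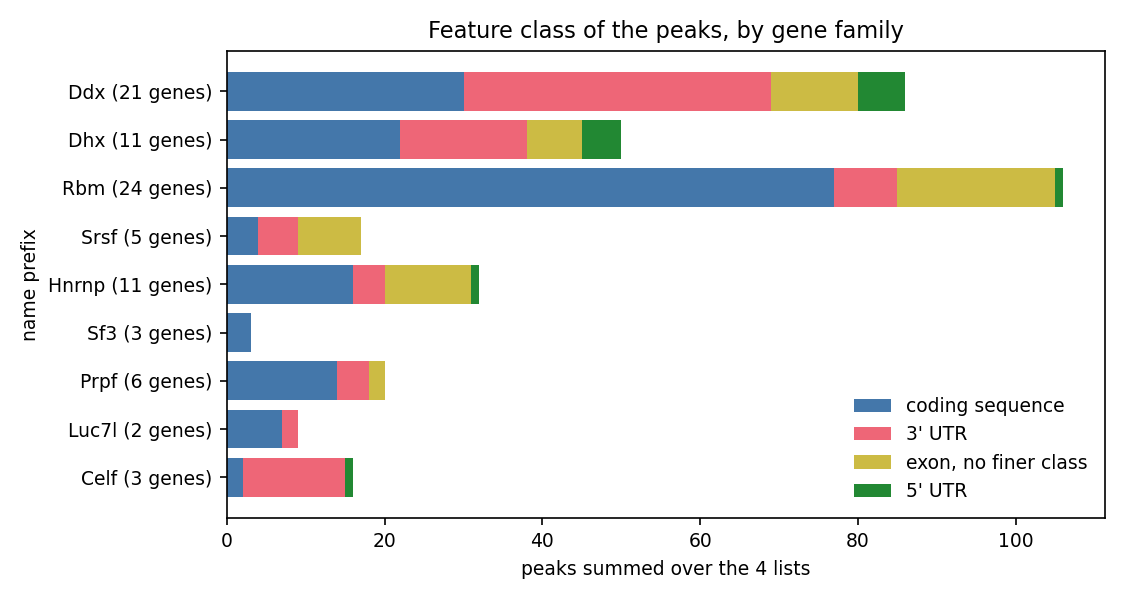
Peaks summed over the 4 lists (horizontal axis, number of peaks) for each name prefix, split by the authors' feature class. Coding sequence makes up most of the bar for Rbm (77 of 106) and Prpf (14 of 20), and the 3′ UTR most of that for Celf (13 of 16).

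Peaks in these genes often ran over several exon blocks, so that part of them spanned splice junctions. That held in PA for 17 of 67 WT peaks (25.4%) and 42 of 98 KO peaks (42.9%), and in RO for 14 of 83 (16.9%) and 28 of 91 (30.8%). Over all peaks in protein-coding genes the shares were 14.4%, 22.2%, 13.5% and 16.8%. The share was highest in KO PA in both sets.

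Peaks were shared widely between the lists. Of the 86 genes, 37 (43.02%) had a peak in all 4 lists, where 34.4% of all 8733 genes did. Another 16 had a peak in 3 lists, 16 in 2 and 17 in 1. The 37 were spread over the families: 12 of 24 Rbm, 8 of 11 Dhx, 7 of 21 Ddx, 3 of 5 Srsf, 2 of 11 Hnrnp, 1 of 6 Prpf, 2 of 3 Celf, 0 of 3 Sf3 and both Luc7l genes. Within the set, the median summed input count was 3380 for genes with a peak in 1 list, 5514 in 2, 6928 in 3 and 5226 in all 4. The whole set had a median of 5266, where genes with a peak in any list had 1201. Over all genes with a peak, the median WT count in PA was 657.5 for a peak in both genotypes, 369 for KO alone and 293 for WT alone. In the set these were 1511, 2121 and 1369. The part of the counts in the sharing of peaks was not tested.

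In PA, 75 of the genes had a peak in either genotype: 46 in both, 26 (34.7%) in KO and not in WT, and 3 (4.00%) in WT and not in KO. Over all 6826 genes with a PA peak 31.0% had one in KO alone and 10.9% in WT alone. In RO, 77 had a peak in either genotype: 47 in both, 18 (23.4%) in KO alone and 12 (15.6%) in WT alone, where the shares over all 7534 genes were 23.0% and 25.9%. The shares in KO alone were near those over all genes in both fractions. The intervals of the shares in WT alone were 1.37% to 11.1% in PA and 9.15% to 25.3% in RO.

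Other patterns of lists held fewer genes. Hnrnpf, Prpf6, Rbm43, Rbm47 and the 3 Sf3 genes were among those with a peak in KO PA alone. The 7 with a peak in both KO lists and in neither WT list were Ddx5, Ddx59, Hnrnpdl, Hnrnph2, Hnrnpm, Hnrnpul2 and Prpf40b (8.14% of the 86 genes, where 6.87% of all genes with a peak had that pattern). The 6 with a peak in WT RO alone were Ddx39b, Hnrnph3, Rbm28, Rbm7, Rbms1 and Srsf10 (6.98%, where 14.3% of all genes did). Only Ddx28 had peaks in both WT lists and in neither KO list, and its 2 peaks did not overlap.

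By position, 60 of the 67 WT PA peaks in these genes (89.6%, Wilson 95% interval 80.0% to 94.8%) overlapped a KO PA peak by at least 1 bp, where 79.7% of all WT PA peaks did. In RO 57 of 83 WT peaks (68.7%, 58.1% to 77.6%) overlapped a KO peak, where 55.9% of all WT RO peaks did. In the other direction 56 of 98 KO PA peaks (57.1%) overlapped a WT PA peak and 55 of 91 KO RO peaks (60.4%) a WT RO peak, where the shares over all peaks were 56.6% and 58.9%. Between the 2 KO lists 78 of 91 KO RO peaks (85.7%) overlapped a KO PA peak and 75 of 98 KO PA peaks (76.5%) a KO RO peak, where the shares over all peaks were 81.1% and 70.0%. WT PA peaks overlapped a KO RO peak in 62 of 67 cases (92.5%, and 73.0% over all peaks). Peaks without a counterpart in the other genotype had lower folds in KO PA and WT RO. In KO PA the median fold was 7.62 for the 42 peaks that overlapped no WT PA peak and 14.2 for the 56 that did, and in WT RO it was 9.86 for 26 peaks and 16.8 for the other 57. In KO RO the medians were close (8.57 and 8.74). WT PA went the other way, with a median fold of 13.7 for the 7 peaks without a KO PA counterpart and 8.44 for the other 60. Over all peaks, those without a counterpart had the lower median fold in each list. In PA the medians without and with one were 9.49 and 13.2 for WT, and 9.4 and 18.8 for KO. In RO they were 12.1 and 21.5 for WT, and 9.13 and 15.7 for KO. When at least 50% of both peaks had to be shared, the share of WT peaks of the set with a KO counterpart was 67.2% in PA and 45.8% in RO. That rule was applied to peaks of the set only, so no share over all peaks stands beside it.

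Merged over the lists, the peaks formed 132 sites, of which 41 in 34 genes had a peak in all 4 lists, 19 in 3, 24 in 2 and 48 in 1. Sites in 1 list came mostly from KO PA (18) and WT RO (19), and there were 4 from WT PA and 7 from KO RO. Another 14 sites were in both KO lists alone, 1 in both WT lists alone, 4 in both RO lists alone and 0 in both PA lists alone. Sites were merged for these genes only, so no share over all genes stands beside these counts. By gene, peaks in both KO lists alone were found for 8.14% of the set and 6.87% of all genes with a peak. Coordinates of the sites below are in build mm10, and where a list had several peaks in a site the highest fold is given.

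Among the DEAD-box helicases, Ddx6, which represses translation and promotes mRNA decapping, had most peaks of all 86 genes (11) and 2 sites in all 4 lists. Its 5′ UTR site at chr9:44604892-44607420 on the plus strand had folds of 75.9 in WT and 31.8 in KO for PA, and 147 and 30.9 for RO. Its 3′ UTR site at chr9:44635851-44637403 had folds of 67.5, 21.8, 23.8 and 24.6. Both sites were therefore among the strongest of the set in WT PA, where only the Rbm12 site had a higher fold. Ddx20, a partner of the SMN complex that builds snRNPs, had a site classed in part as coding sequence and in part as 3′ UTR at chr3:105678330-105678955 with folds of 19.8, 11.5, 139 and 13.8. Ddx54, a nucleolar helicase, had all of its 9 peaks in the 3′ UTR, and the site at chr5:120627247-120628443 had folds of 32.7, 75.2, 51.1 and 9.61. Ddx19b, which acts in mRNA export, had 1 site at chr8:111007892-111008739 in all 4 lists, with folds of 31.2, 52.6, 56.1 and 41.9.

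The abundant helicases Ddx5 and Ddx17, which act in splicing and microRNA processing, had weak peaks. Ddx5 had a 3′ UTR site at chr11:106781971-106782150 in the KO lists alone, with folds of 2.81 in PA and 1.5 in RO. Ddx17 had a site at chr15:79530401-79531885 with a fold of 3.81 in the KO PA list and one of 2.31 in the WT RO list. Ddx42, a helicase of the U2 snRNP, had a coding site at chr11:106247610-106248300 in all 4 lists with folds of 13.0, 49.8, 3.84 and 26.

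Among the DEAH-box helicases, Dhx57 had a coding site at chr17:80275048-80275863 with folds of 54.2 in WT and 86.2 in KO for PA, and 34.6 and 64.6 for RO. This was the highest fold of the set in KO PA. Dhx33, which acts in ribosome biogenesis, had a 3′ UTR site at chr11:70986636-70987235 with folds of 46.4, 47.4, 56.5 and 134, the last being the highest of the set in KO RO. A further 3′ UTR site of Dhx33 at chr11:70984301-70984570 was in the KO lists alone, with folds of 16.5 and 14.0. Dhx36, which unwinds G-quadruplexes and is needed for spermatogenesis, had 1 coding site at chr3:62470589-62471373 with folds of 14.8, 8.84, 8.07 and 4.37. Dhx15, which disassembles spliceosomes, had 1 coding site at chr5:52184568-52184867 with folds of 16.5 (KO PA), 18.0 (WT RO) and 3.96 (KO RO). Dhx32 had a site classed as exon at chr7:133759513-133759900 with folds of 7.12, 52.3, 10.8 and 8.93.

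Several Rbm genes had pairs of coding sites in all 4 lists. Rbm46, a germ cell protein needed for meiosis, had sites at chr3:82863917-82864422 (folds 7.24 in WT and 6.50 in KO for PA, and 24.6 and 7.77 for RO) and at chr3:82865356-82876364 (8.86, 7.82, 20.5 and 40.5). Rbm44, a protein of the intercellular bridges between germ cells, had sites at chr1:91150104-91152453 (27.6, 13.2, 51.0 and 15.4) and at chr1:91152902-91153171 (13.7, 51.1, 7.53 and 19.0). Rbm12 had sites at chr2:156096427-156097476 (4.1, 29.7, 118 and 39.6) and at chr2:156097686-156098346 (94.3, 31.9, 127 and 60.6). In Rbm44 the stronger of the 2 sites was not the same in all lists, while in Rbm12 the second one listed had the higher fold in each. Rbm33 had a weak site at chr5:28339011-28339280 (2.22, 6.42, 3.60 and 6.63) and a stronger one at chr5:28394205-28408265 (10.5, 76.7, 33.6 and 18.0). Rbm25, a regulator of alternative splicing, had all of its 7 peaks in exons with no finer class, at folds of at most 10.5. Rbm4b had its 8 peaks in exons with no finer class as well.

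The retrogenes Rbmxl1 and Rbmxl2 belong to the family of the X-linked Rbmx, and Rbmxl2 is expressed in meiotic cells. Rbmxl1 had 2 coding sites in all 4 lists, at chr8:78505477-78505953 (folds 6.59, 9.02, 133 and 6.80) and at chr8:78506012-78506339 (12.6, 8.65, 12.1 and 22.1). Rbmxl2 had 1 coding site at chr7:107210475-107210798 with folds of 6.41, 9.42, 1.46 and 18.3. How the authors treated reads that fit a gene and its near copies is not given in the sources used here, so values of Rbmxl1, Rbmxl2, Rbm4 and Rbm4b, Rbm12b1 and Rbm12b2, and Ddx39 and Ddx39b are uncertain.

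Srsf1, the founding SR protein, had 1 site in the 3′ UTR at chr11:88050915-88051424 in all 4 lists, with folds of 1.94, 7.99, 4.57 and 2.52. Srsf5 and Srsf11 also had 1 site each in all 4 lists, classed as exon for Srsf5 (chr12:80949847-80950117, folds 5, 14.7, 9.87 and 8.07) and as coding sequence for Srsf11. The SR protein sites were thus weak to moderate. Hnrnpu, a scaffold of nuclear RNA, had 1 coding peak in the KO PA list (fold 2.97) and 1 peak in the 5′ UTR in the WT RO list (4.61), and Hnrnpll had an exon site at chr17:80047996-80048415 in all 4 lists with folds of 3.29, 15.0, 48.4 and 4.24.

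Few peaks of the set lay at a listed RefSeq start. Their letters can be shown only where the RefSeq promoter windows (GRCm38.p6, 250 bases before to 50 after a start) reach them. Windows were listed for 72 of the 86 symbols, and 4 peaks of 4 genes reached one. Bases after a listed start of Rbm26 and of Hnrnpu are shown because their WT RO peaks are in the 5′ UTR and cover the whole stretch. In RefSeq both genes reach further upstream, to chr14:105181039 and chr1:178338891, so these starts are not the outermost ones. The Rbm26 peak overlapped its window by 63 bp, of which 50 are transcribed, so it ran past the start used. GAC, the core that the common m6A sequence contexts share, is in capitals, searched on the sense strand. Each stretch holds bases 21 to 50 counted from the start used, 5′ to 3′, on the minus strand.
Rbm26, chr14:105177265-105177294: tcttgggggtgctggaagccgggaaGACcc
Hnrnpu, chr1:178337766-178337795: cccctgcgagagGACgttgcgtgctcgctc
The Rbm26 peak at chr14:105177177-105177327 had a fold of 24.2 and the Hnrnpu peak at chr1:178337647-178337797 one of 4.61. Each stretch held GAC once, and of the 32817 windows listed by RefSeq, 15768 (48.0%) held it in their 50 transcribed bases. The match is a description of these letters and does not place the methylated base. The other 2 peaks, of Ddx21 in WT PA and Hnrnpul1 in KO RO, were classed as coding sequence, and the 50 transcribed bases of their windows held no GAC.

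Of the core spliceosome genes, Prpf4b, a kinase of the tri-snRNP, had 10 peaks, all in coding sequence, at 2 sites in all 4 lists. The site at chr13:34899972-34901745 had folds of 20.7 in WT and 8.53 in KO for PA, and 230 and 6.19 for RO, and 230 was the highest fold of the whole set. The other, at chr13:34875602-34884368, had folds of 13.5, 26.7, 8.74 and 9.79. Sf3a3, Sf3b2 and Sf3b4, subunits of the U2 snRNP, had 1 coding peak each, all in KO PA, and that of Sf3b4 had a fold of 12.0. Luc7l2 and Luc7l3, which bind the U1 snRNP, had a weak site in all 4 lists, at chr6:38592769-38603667 (4.41, 4.62, 5.65 and 5.71) and chr11:94293161-94297884 (4.49, 5.58, 4.64 and 3.05).

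Celf proteins bind GU-rich elements and control splicing and mRNA decay. Celf5 had 9 peaks, all in the 3′ UTR, of which 1 was in WT and 1 in KO for PA, and 3 and 4 for RO. They lay between chr10:81460034 and chr10:81461828 on the minus strand, and the site in all 4 lists, chr10:81461320-81461828, had folds of 6.85, 19.3, 13.5 and 7.29. The other sites of Celf5 were in the RO lists alone. Celf6 had its 2 peaks in the RO lists.

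Input counts were compared between genotypes for the genes with at least 10 CPM in either library. In PA 14 of 81 genes were at least 2-fold lower in KO and 2 at least 2-fold higher, where 13.0% and 13.3% of all 12575 genes were. Stated as shares, 17.3% of the helicase and splicing factor genes were at least 2-fold lower and 2.47% at least 2-fold higher. In RO 7 of 82 were at least 2-fold lower and 3 higher (8.54% and 3.66%), where the shares over all 12567 genes were 12.9% and 11.8%. The median log2 ratio of KO over WT was -0.44 in PA and -0.19 in RO, and over all genes -0.04 and -0.05. Of the genes, 55 of 81 were below 0 in PA (67.9%, and 51.9% of all genes) and in RO 54 of 82 (65.9%, with 52.4% over all genes). In bulk libraries fewer cells of a type and less RNA per cell cannot be told apart.

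These counts depend on how the libraries are scaled. With total counts alone, without TMM factors, the median log2 ratio over all genes moved by 0.32 in PA and 0.20 in RO, and 3 of the genes were at least 2-fold lower and 4 higher in PA, so that the share of lower genes among those past 2-fold was 42.9% in place of 87.5%. In RO 5 were lower and 4 higher (55.6% in place of 70.0%). The distance between the median of the set and that of all genes changed little, from -0.40 to -0.43 in PA and from -0.14 to -0.17 in RO. Below 0 were then 49 of 82 in PA and, for RO, 43 of 82. The genes past 2-fold lower with total counts alone were Celf4, Dhx57 and Srsf5 in PA and Celf4, Ddx11, Ddx39, Ddx51 and Rbm44 in RO, and every other call of a gene of the set as lower in KO was made with TMM or DESeq2 factors only. With DESeq2 size factors 11 genes were at least 2-fold lower in PA, and Sf3b2, Rbm44 and Luc7l2 were not among them.

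In 38 of 81 genes (46.9%) both KO libraries were below both WT libraries, and in 11 (13.6%) both were above, where the shares over all genes were 29.8% and 24.2%. With total counts alone 29 of 82 (35.4%) were below and 24 (29.3%) above, and over all genes 20.1% and 36.6%. Across the 81 genes the PA and RO ratios of KO over WT, which share no library, had a correlation of 0.52 (Pearson's r) and 0.59 (Spearman's rho), and over 11465 genes of 0.59 and 0.58. The genes share the 4 libraries and their depths, so this describes these libraries.

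**Figure D3:**
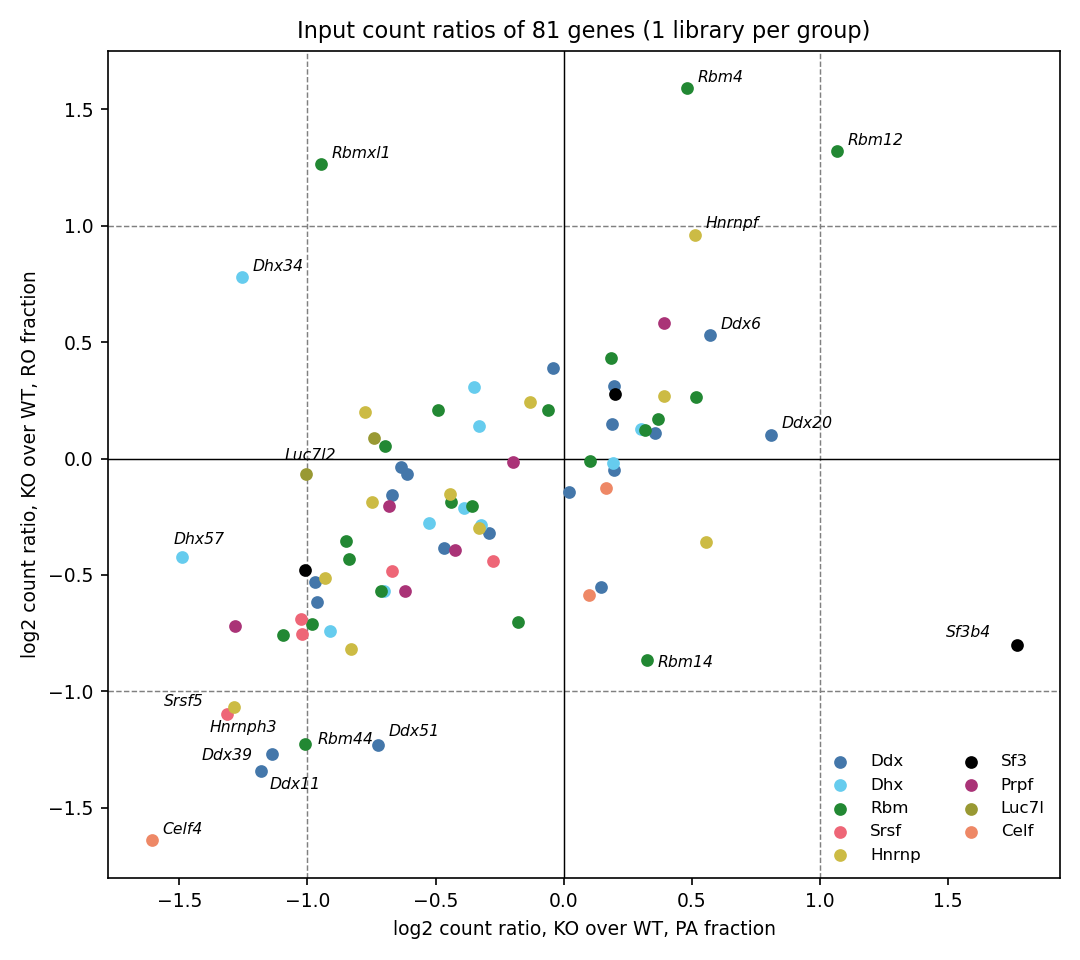
Log2 ratio of input counts of KO over WT in PA (horizontal axis) and RO (vertical axis) for 81 genes, 1 point per gene, coloured by name prefix, with dashed lines at 2-fold. Celf4, Ddx11, Ddx39, Srsf5, Hnrnph3 and Rbm44 lie past 2-fold lower in both fractions and Rbm12 past 2-fold higher in both. With total counts alone Celf4 and Rbm12 do so in both fractions. The 6 of 81 genes lower in both (7.41%) stand beside 5.85% of all 11465 genes. The 1 gene higher in both stands beside 501 of those 11465.

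The genotype ratio followed the number of counts, in the set and over all genes. In PA the median log2 ratio over all genes was 0.03 at 300 to 1000 summed counts, -0.10 at 1000 to 3000, -0.27 at 3000 to 10000 and -0.44 at 10000 or more. The helicase and splicing factor genes had medians of 0.10 (15 genes), 0.14 (24), -0.64 (31) and -0.89 (10) in those ranges. In the 2 highest ranges 28 of 31 and 10 of 10 were below 0, where 68.1% and 80.6% of all genes were. In RO the medians of the set were -0.01 (15 genes), -0.09 (28), -0.35 (24) and -0.36 (11), against 0.03, -0.11, -0.23 and -0.37 over all genes. At 100 to 300 counts in RO 4 genes of the set had a median of 0.64, where all genes had 0.15. From 300 counts up the set was thus near all genes of like counts in RO, and in PA it was lower from 3000 counts up. The genes had a median of 5266 counts summed over the 4 libraries, where genes with a peak in any list had 1201.

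**Figure D4:**
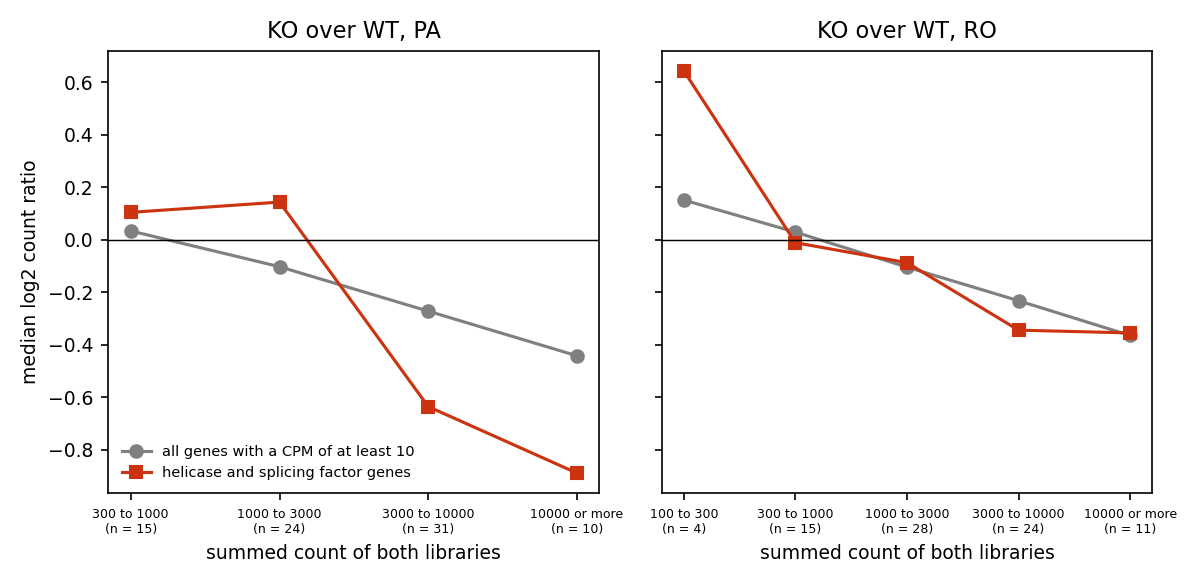
Median log2 ratio of KO over WT (vertical axis) in ranges of the summed count of both libraries (horizontal axis, n is the number of helicase and splicing factor genes), for these genes (red) and all genes with a CPM of at least 10 (grey); the range with 1 gene in PA is left out. In PA the red line lies below the grey one in the 2 highest ranges, at -0.64 against -0.27 and -0.89 against -0.44, and in RO the lines nearly meet at -0.36 and -0.37.

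Some of the other markers differed between the genotypes. Of the 6 named round spermatid markers, 4 were at least 2-fold higher in KO in both fractions: Akap4, Odf1, Prm2 and Tnp2. The other 2 had ratios below 0 with TMM factors, -0.48 in PA and -0.61 in RO for Acr, and -0.09 and -0.81 for Acrv1. The summed level of the 6 was 245 CPM (WT) and 533 (KO) in PA and 464 and 981 in RO. The summed pachytene level was 2651 and 1642 CPM in PA and 2382 and 1817 in RO. Sycp2 had the most counts of the 5 pachytene markers in each library (ratios -1.11 in PA and -0.71 in RO). It was the 1 marker of the 5 at least 2-fold lower in PA, and 0 were in RO. Ldhc had ratios above 0 in both fractions (0.20 and 0.08), and Sycp1 had -0.09 in PA and 0.25 in RO. The part of these markers in the ratios of the helicase and splicing factor genes was not tested.

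All 5 SR protein genes had log2 ratios of KO over WT below 0 in both fractions, with medians of -1.02 in PA and -0.69 in RO, but with total counts alone Srsf4 was not below 0 in PA. Srsf5 had 1271 CPM in WT and 511 in KO for PA, and 1002 and 468 for RO. Both KO libraries were below both WT libraries, with log2 ratios of -1.32 (95% interval -1.36 to -1.27) in PA and -1.10 (-1.15 to -1.05) in RO. Srsf1 had 514, 253, 428 and 254 CPM, and Srsf11 had 818, 403, 671 and 416. For Srsf1 and Srsf11 the ratio passed 2-fold in PA alone, at -1.02 in each, and was -0.75 and -0.69 in RO. Their PA ratios with total counts alone were -0.73 in each, and Srsf5 was at -1.03 in PA and -0.92 in RO. Srsf5 and Srsf11 had 10000 or more summed counts in PA, where the ratios of all genes had a median of -0.44 and a robust SD of 0.54, and Srsf1 had 3000 to 10000, where these were -0.27 and 0.60.

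Among the Hnrnp genes 8 of 11 were below 0 in PA (7 with total counts alone) and 7 of 11 in RO. Hnrnph3, which binds G-rich RNA, had 361 CPM in WT and 148 in KO for PA, and 242 and 116 for RO, and was the single one past 2-fold lower in both fractions (-1.29 and -1.07), a call lost in both with total counts alone (-0.89 in RO). Hnrnpu had 1075, 792, 868 and 781 CPM. Hnrnpf, also a binder of G-rich RNA, had 67.1, 95.8, 47.3 and 92.4 CPM, with both KO libraries above both WT libraries, and its ratio in RO was 0.96. Hnrnpa0 had 38.4, 56.7, 64.0 and 49.8 CPM, so its groups overlapped.

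Of the Ddx genes 2 were at least 2-fold lower in PA and 3 in RO, and 0 were higher in either. Without TMM factors 0 were lower in PA, 3 were lower in RO and 1, Ddx20, was higher in PA. Ddx11, a helicase of sister chromatid cohesion, had 324 CPM in WT and 143 in KO for PA, and 318 and 125 for RO. Its ratios were -1.18 in PA (-1.27 to -1.10) and -1.34 in RO (-1.43 to -1.25), and the 2 WT values were close to each other, as were the 2 KO values. Ddx39, which acts in splicing and mRNA export, had 189, 86.1, 178 and 73.9 CPM (ratios -1.14 and -1.27). Without TMM factors the PA ratios of Ddx11 and Ddx39 were -0.89 and -0.85. Ddx51 had 76.0, 45.9, 71.3 and 30.3 CPM (-0.72 and -1.23). Ddx6 and Ddx20 went the other way: Ddx6 had 76.0, 113, 65.7 and 94.9 CPM (0.57 and 0.53), with both KO libraries above both WT libraries. Ddx20 had 69.2, 121, 115 and 124 CPM, so that WT PA alone was low (0.81 in PA and 0.10 in RO). Ddx5 and Ddx17 had 1450, 912, 1060 and 950 CPM and 991, 509, 772 and 504 CPM, and in both genes WT PA was the highest library.

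Dhx57 had 184 CPM in WT and 65.5 in KO for PA, and 120 and 89.3 for RO. Its ratio of -1.49 in PA (-1.62 to -1.37) was the second lowest of the set there, and in RO it was -0.42. Dhx34 had 20.5, 8.50, 9.29 and 16.1 CPM, so its ratio was -1.25 in PA and 0.78 in RO. Dhx15 had 204, 162, 156 and 172 CPM and Dhx36 had 190, 145, 163 and 141, which spans less than 2-fold in either gene. Of the 11 Dhx genes 9 were below 0 in PA and 7 in RO.

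Rbm genes were found past 2-fold in both directions. Rbm12 had 32.3 CPM in WT and 67.9 in KO for PA, and 21.5 and 54.0 for RO, and was at least 2-fold higher in KO in both fractions (1.07, 95% interval 0.89 to 1.25, and 1.32, 1.11 to 1.55). In RefSeq its span overlaps Cpne1, and which reads were counted for which gene is not given in the sources used here. Rbm4 had 19.0, 26.6, 8.25 and 25.2 CPM (0.48 and 1.59), so that WT RO was the low library. Rbm44 had 210, 104, 160 and 68.1 CPM, past 2-fold lower in both fractions (-1.01 and -1.23), but not in PA with total counts alone (-0.72) or with DESeq2 size factors. Rbm46 had 265, 148, 194 and 144 CPM (-0.84 and -0.43). In both of these germ cell genes the 2 KO libraries were below the 2 WT libraries. Rbmxl2 had 35.7, 31.5, 41.6 and 25.5 CPM (-0.18 and -0.70, the first above 0 with total counts alone). Rbmxl1 had 31.4, 16.2, 6.17 and 15.1 CPM, lower in KO in PA (-0.95) and higher in RO (1.26). Rbm25 had 2132, 1184, 1741 and 1360 CPM, and Rbm33 had 290, 226, 205 and 178.

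Sf3b4 had 5.03 CPM in WT and 17.6 in KO for PA, and 20.5 and 11.7 for RO, from 59, 190, 236 and 128 counts. WT PA was the low library, and the ratio was 1.77 in PA (1.38 to 2.25), the highest of the set, and -0.80 in RO. Sf3b2 was at least 2-fold lower in PA (-1.01), a call lost with DESeq2 size factors and with total counts alone, and Sf3a3 was at 0.20. Prpf40b, a protein associated with the U1 snRNP, had 292, 120, 214 and 130 CPM (-1.28 and -0.72). Prpf4b had 370, 276, 346 and 264 CPM, less than 2-fold apart. Luc7l2 had 1642, 817, 1022 and 975 CPM and Luc7l3 had 1714, 1026, 1130 and 1202. In both Luc7l genes WT PA stood above the other 3 libraries, so the PA ratios were -1.01 and -0.74 and the RO ratios -0.07 (above 0 with total counts alone) and 0.09.

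Celf4 had 31.4 CPM in WT and 10.2 in KO for PA, and 63.2 and 20.2 for RO. Its ratios of KO over WT were the lowest of the set in both fractions, -1.61 (-1.95 to -1.31) in PA and -1.64 (-1.87 to -1.43) in RO. At its counts the spread of all genes in PA was 0.86 as a robust SD. Celf5 had 116, 125, 284 and 189 CPM (0.10 and -0.59), and Celf6 had 40.2, 45.1, 59.7 and 54.6 (0.16 and -0.13, the second above 0 with total counts alone).

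**Figure D5:**
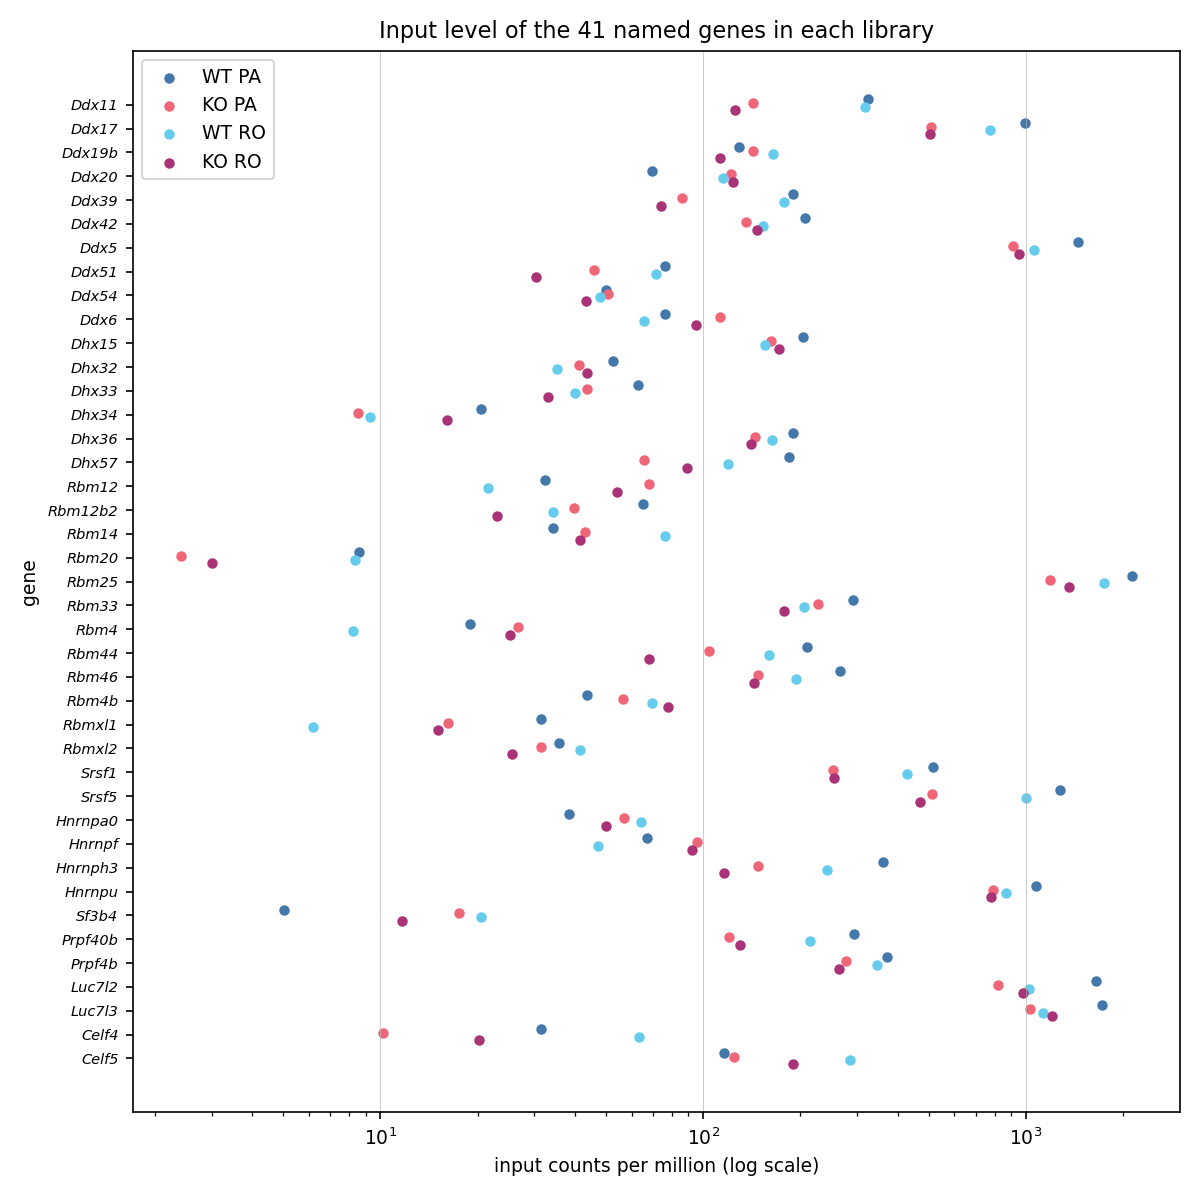
Input level in CPM (horizontal axis, log scale) of the 41 named genes (rows) in the 4 input libraries, 1 point per library. Both KO points lie left of both WT points for Srsf1, Srsf5, Ddx11, Rbm44 and Celf4, and the WT PA point stands apart to the right for Luc7l2 and Luc7l3 and to the left for Sf3b4.

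Between the fractions few genes of the set passed 2-fold. In WT 4 of 81 genes were at least 2-fold higher in RO and 4 at least 2-fold lower (4.94% each), where 11.5% and 9.64% of all 12254 genes were. At like counts the genes past 2-fold either way were 3 of 13 genes against 22.0% of all genes at 300 to 1000 summed counts, 2 of 22 against 10.6% at 1000 to 3000, 2 of 32 against 5.32% at 3000 to 10000, and 0 of 12 against 4.76% from 10000 on. In KO 0 of 82 passed 2-fold in either direction, where the shares over all 12470 genes were 5.21% and 5.64%; the largest ratios were 0.98 for Celf4 and -0.78 for Rbm12b2. The median log2 ratio of RO over PA was -0.30 in WT, with 63 of 81 genes below 0, and -0.04 in KO, with 48 of 82 below 0. Over all genes the medians were -0.03 and -0.02. Both RO libraries were below both PA libraries in 16 of 81 genes (19.8%) and above in 5 (6.17%), where the shares over all genes were 16.1% and 14.4%.

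The WT comparison used the same WT PA library as the PA genotype comparison, and that library was the highest for many of these genes. Of the genes below 0 in RO over PA in WT, 42 were also below 0 in KO. In WT the genes at 3000 to 10000 summed counts had a median of -0.30 (32 genes) and those at 10000 or more -0.35 (12 genes), where all genes had -0.05 and -0.02. In KO the same ranges had medians of 0.00 (21 genes) and 0.02 (8 genes).

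All 3 Celf genes were higher in RO than in PA in both genotypes, under each scaling tried. Celf5 had a ratio of 1.29 in WT (1.20 to 1.38) and 0.60 in KO (0.50 to 0.70), Celf4 1.01 and 0.98, and Celf6 0.57 and 0.27. For Celf5 and Celf6 both RO libraries were above both PA libraries, as they were for Ddx31, Dhx40 and Rbm4b, which make up the 5 (not for Ddx31 and Dhx40 with total counts alone). Celf5 and Celf6 were also the Celf genes with more peaks in the RO lists than in the PA lists. Rbm14 was higher in RO in WT alone (1.15, and -0.05 in KO).

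The genes past 2-fold lower in RO in WT were Rbmxl1 (-2.31), Rbm4 (-1.19), Dhx34 (-1.13) and Hnrnpdl (-1.08, which did not pass with total counts alone). In KO their ratios were -0.10, -0.08, 0.90 and -0.10. Sf3b4 had the highest ratio in WT (1.99) and -0.58 in KO.

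In PA the genes with a peak in KO alone did not have more input in KO as a group, and in RO 8 of 16 had ratios above 0. In PA the median log2 ratio of KO over WT was -0.68 for the 24 tested genes with a peak in KO alone, -0.39 for the 45 with a peak in both genotypes and -0.16 for the 10 with a peak in neither PA list. In RO it was 0.04 for the 16 tested genes with a peak in KO alone, -0.36 for the 46 with a peak in both and -0.32 for the 11 with a peak in WT alone. Over all genes with a peak the medians for KO alone were 0.05 in PA and 0.08 in RO. For a peak in both genotypes they were -0.09 and -0.07, and for WT alone -0.32 and -0.27. All of these medians are with TMM factors, and total counts alone moved the ratios of KO over WT up in both fractions. Among the 7 genes with a peak in both KO lists alone, Ddx5, Hnrnpm, Hnrnpul2 and Prpf40b had less input in both KO libraries than in both WT libraries (not Ddx5 with total counts alone), Hnrnpdl and Hnrnph2 had overlapping input and Ddx59 was under 10 CPM. The peak fold uses the same input libraries, so these values are not independent of it.

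Other splicing genes from a list written for this work, such as U2 auxiliary factors, snRNP proteins and splicing kinases, were set beside the set; 30 of 72 had a peak in any list and so a symbol. In PA 5 of the 30 were at least 2-fold lower in KO and 1 higher, where 13.0% and 13.3% of all genes were. Their median was -0.46, with 22 below 0. In RO 2 of the 30 were lower and 1 higher, where 12.9% and 11.8% of all genes were. Their median was -0.17, with 19 below 0. With total counts alone 2 were lower and 2 higher in PA, and 1 lower and 3 higher in RO. The medians were close to those of the helicase and splicing factor genes, -0.44 and -0.19. Snrnp70, which binds the U1 snRNA, had 11155 counts in WT and 3890 in KO for PA, and 9394 and 4183 for RO (ratios -1.40 and -1.09). Tial1, a regulator of splicing and translation, had 3476, 1052, 3027 and 1196 counts (-1.61 and -1.27). In both genes the 2 KO libraries were below the 2 WT libraries. A peak in all 4 lists was found for 10 of the 30, where 34.4% of all genes with a peak had one.

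Of 32 genes listed for known roles in germ cells, 14 belonged to the set, and 10 of these had a peak in all 4 lists. Over the whole set 43.0% of genes had one in all 4 lists, and over all genes with a peak 34.4%. Of the 13 with at least 10 CPM, 3 were at least 2-fold lower in KO in PA (Luc7l2, Rbm44 and Srsf1), where 13.0% of all genes were, and 1 in RO (Rbm44), where 12.9% were, and 0 were higher in either. In PA the call of Srsf1 alone was kept with DESeq2 size factors, and with total counts alone 0 were lower and 1, Ddx20, was higher. Rbm20, known as a splicing regulator of heart muscle, had a peak in all 4 lists at 101, 26, 96 and 33 counts, under 10 CPM in every library, and its ratios were not counted. The same held for Ddx28, Ddx59 and Rbm11, and for Rbm43 in PA and in the WT comparison.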

How the data were processed

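Input and immunoprecipitated libraries (8 samples) were grouped by their titles. The submitters' processing notes name cutadapt 2.5, HISAT2 2.1.0, HOMER 4.10.4 and build mm10, without role or order; the peak caller, the counter and its use of strand are not given in the sources used here. The authors deposited whole-number gene counts of the 4 input libraries. Per the file headers, each deposited peak has exon blocks, a p-value, a fold (ratio of immunoprecipitated over input) and a log10 false discovery rate, kept here as a score. Symbols came from the peak lists and were joined to the counts by gene identifier. Each list was assigned by its name.

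Counts were scaled by TMM (edgeR 4.0.16 in R 4.3.3) and turned into log2 CPM with a prior count of 2. Ratios were counted for genes with at least 10 CPM in either library and carry exact binomial 95% intervals; the spread of all genes is given by range of counts. Peaks overlapped where exon blocks on 1 strand shared at least 1 bp, and the code for this was checked against bedtools 2.31.1 on the peaks of the set. Of 85 genes matched to RefSeq, 19 overlap another protein-coding gene (Rbm4, Rbm4b, Rbm12, Rbm12b2, Rbm14, Hnrnpf, Hnrnph3, Hnrnpll, Hnrnpdl, Hnrnpu, Prpf40b, Dhx32, Dhx57, Ddx5, Ddx17, Ddx19b, Ddx28, Ddx42 and Ddx54), and their counts are uncertain where strand was not used. The code was tested on simulated data.

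Genes were named by rule: the 12 with most peaks among those in all 4 lists, the 5 highest and 5 lowest genotype ratios per fraction, the 3 highest and 3 lowest fraction ratios per genotype, the 5 highest folds per list, and a germ cell list. Srsf11, Hnrnpll, Hnrnpdl, Sf3a3, Sf3b2, Celf6, Rbm26, Hnrnpm and genes named by their pattern of lists were chosen after their values were seen. Members and lists were chosen with earlier results of these data known. Alternatives were DESeq2 1.42.0 size factors, total counts, a prior count of 0.5, CPM filters of 1 or none, stricter peak limits, another overlap rule and exchanged KO lists.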

Additional observations from a re-analysis of the deposited data

Results flagged for a closer look

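For 3 genes the ratio of KO over WT went opposite ways in the 2 cell fractions, by more than 0.5 on the log2 scale in each. With 1 library per group the difference was not tested. In Sf3b4 the PA ratio exceeded the RO ratio by 2.57 on the log2 scale, and WT PA was the low library (59 counts, against 190 for KO in the same fraction and 236 and 128 in RO). In Rbmxl1 the difference of PA minus RO was -2.21, and WT RO was the low library (368 and 175 counts for WT and KO in PA, 71 and 165 in RO). In Dhx34 it was -2.03, from 241, 92, 107 and 176 counts. Of the 81 genes counted in both fractions, 21 (25.9%) had ratios of opposite sign, where 29.0% of all genes did.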

How the results depend on the processing

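Of 110 values under alternatives for 31 results, 98 stayed near the main value (counts within 1.5 times, shares inside their Wilson 95% interval, medians inside the binomial 95% interval over genes), 12 moved and 0 reversed. With total counts alone the genes at least 2-fold lower in KO in PA numbered 3 and those higher 4, and the medians were -0.14 for KO over WT in PA, -0.016 for KO over WT in RO and -0.20 for RO over PA in WT. With a CPM filter of 1, or with none, 11 genes were at least 2-fold lower in KO in RO and 2 at least 2-fold lower in RO over PA in KO. With the KO input libraries exchanged, an alternative added after seeing the data, 4 genes were at least 2-fold lower in KO in RO. With a reciprocal overlap of 50%, the share of WT peaks of the set with a KO counterpart was 67.2% in PA and 45.8% in RO. No paired analysis was possible because the groups compared share fewer than 2 replicate numbers, each group being 1 library; a joint fit of both fractions, which would take their difference as the error, was not made. Genes of low counts limit precision: the robust SD of the PA ratio was 1.51 at 100 to 300 summed counts.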
